A study of Mus musculus with 47 samples.

Results

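Msh3, Msh6, Mlh3, Pms1, Pms2, Fan1, Lig1 and Exo1 are genes of DNA mismatch repair and its neighbouring pathways that act on CAG repeats and, in human genetics, on the age at which Huntington's disease begins. They were picked by gene name, as the 8 rows of these names among the 48795 gene rows of the count and FPKM tables. That rule used no measured value, although earlier results of these data were known when genes and lists were chosen. All 8 passed the filter on low counts, which kept 19174 genes.

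Mismatch repair starts when a MutS dimer finds an error in the helix. The dimer that holds Msh6 recognises mispaired bases and short loops, and the dimer that holds Msh3 recognises longer loops such as those extruded by slipped CAG repeats. A MutL dimer then joins, of which there are forms with Pms2, Mlh3 or Pms1. Once the DNA is nicked, the exonuclease Exo1 can remove the nicked strand, and the ligase Lig1 seals the DNA. Fan1 is a nuclease of DNA cross-link repair. In human patients, variation at MSH3, PMS1, PMS2, FAN1 and LIG1 is associated with age at onset, and in mouse models carrying an expanded Htt repeat, loss of Msh3 or Mlh3 prevents expansion of the repeat in somatic cells, while loss of Fan1 increases it. Repeat length was not analysed here.

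RNA was measured by sequencing in the cerebral cortex of 47 mice on a C57BL background, dissected at 6 months of age. The groups were 8 Q140 mice, 8 Q140 mice with Ccdc82+/-, 7 Q140 mice with Ccdc82-/-, 8 Ccdc82+/- mice, 8 Ccdc82-/- mice and 8 WT mice. Q140 is a knock-in of an expanded CAG repeat into Htt, heterozygous in every mouse that carries it here, so these mice keep 1 unmodified Htt allele. Ccdc82, a coiled-coil gene, is itself named at a human onset modifier locus. The tissue was whole cortex, so a fall in cells of a type and a fall in RNA per cell cannot be told apart. The mice comprised 24 males and 23 females, and the numbered titles within a genotype and sex were taken as separate mice.

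Library totals ran between 43554594 and 61370843 counts, with a median of 50473683. The labelled sex matched the sex-linked genes in 47 of 47 libraries. Ccdc82 itself lay between 4.70 and 5.83 CPM (counts scaled to library size with TMM factors) in Q140 with Ccdc82-/- mice and between 4.64 and 6.30 CPM in Ccdc82-/- mice, between 10.5 and 13.2 CPM in Q140 with Ccdc82+/- mice and between 9.72 and 12.1 CPM in Ccdc82+/- mice, and between 13.8 and 16.9 CPM in Q140 mice and between 14.3 and 19.1 CPM in WT mice. These ranges did not overlap between the Ccdc82 genotypes, and reads of the gene remained in the -/- mice. Markers of neurons were present in every library, with the summed level of 5 neuron markers between 7028 and 8077 CPM. That of 3 choroid plexus markers was at most 5.64 CPM. The summed level of 4 striatal neuron markers lay between 67.89 and 94.97 CPM, and that of 4 meningeal fibroblast markers was at most 26.75 CPM. The purity of the dissection was not tested.

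The start regions of these genes differ in sequence. RefSeq promoter windows of GRCm38.p6, each running from 250 bases before to 50 after an annotated start, were matched by symbol for 7 of the 8 genes. Exo1 is named only. They were searched on both strands for the letters TTTCCCGC, TTTGGCGC, TTTCGCGC and TTTGCCGC, taken as E2F motifs, for the GC box GGGCGG, the CCAAT box CCAAT, the ETS motif CCGGAAG, the E-box CACGTG, the TATA box TATAAA, and the NRF1 motif and the estrogen and androgen response elements in their full palindromic forms. An E2F motif was found in Msh3 and Msh6, 2 of 7 windows, against 2.26% of all 32851 windows of the same length. A GC box was found in 4 of 7 (Msh3, Msh6, Pms1 and Pms2), against 35.7%, a CCAAT box in 4 of 7 (Msh6, Mlh3, Pms1 and Pms2), against 37.4%, an ETS motif in 2 of 7 (Pms1 and Pms2), against 8.86%, and an E-box in 1 of 7 (Lig1), against 7.15%. Of the other motifs, found in 0 of 7, NRF1 stood in 0.971% of all windows, the TATA box in 13.6%, the estrogen response element in 0.07% and the androgen response element in 0.00913%. Letters that match are a description of the window and not shown to be a site.

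The windows of Pms2, Fan1 and Lig1 are printed to show the start regions of the 3 genes that differed between the sexes, and their letters were not tested against that difference. Capitals mark GC box, CCAAT box, ETS and E-box letters on either strand, and positions are counted from the start site at 0. The Pms2 window (chr5:143909751-143910050, plus strand) holds CCAAT boxes at -153, -108 and -33 and, side by side, GC boxes at -68 and -57 with an ETS motif at -64. The Fan1 window (chr7:64374007-64374306, minus strand) holds none of the searched letters. The Lig1 window (chr7:13276925-13277224, plus strand), the nearest to the annotated gene start of 3 listed for Lig1, holds a single E-box at 36.
Pms2: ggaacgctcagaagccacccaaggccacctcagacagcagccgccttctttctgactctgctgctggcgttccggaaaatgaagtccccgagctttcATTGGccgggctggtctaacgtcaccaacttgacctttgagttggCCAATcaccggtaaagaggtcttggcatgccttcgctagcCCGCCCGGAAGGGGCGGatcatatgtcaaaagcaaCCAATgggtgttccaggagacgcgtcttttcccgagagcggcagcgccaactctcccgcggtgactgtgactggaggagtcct
Fan1: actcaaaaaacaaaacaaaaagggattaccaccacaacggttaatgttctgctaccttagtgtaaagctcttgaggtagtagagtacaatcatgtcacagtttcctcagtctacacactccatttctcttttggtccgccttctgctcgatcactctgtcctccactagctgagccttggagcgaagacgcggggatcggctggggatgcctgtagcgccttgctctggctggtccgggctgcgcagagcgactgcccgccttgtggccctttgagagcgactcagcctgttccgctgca
Lig1: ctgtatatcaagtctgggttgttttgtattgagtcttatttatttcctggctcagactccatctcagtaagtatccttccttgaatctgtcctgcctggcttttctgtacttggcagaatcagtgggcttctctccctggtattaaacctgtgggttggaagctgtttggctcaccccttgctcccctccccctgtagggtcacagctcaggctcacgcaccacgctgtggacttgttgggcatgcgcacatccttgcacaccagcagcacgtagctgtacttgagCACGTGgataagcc

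Levels were compared between genes per length, as FPKM. In WT cortex, Msh6 had the highest mean of the 8, 5.04 ± 0.265 FPKM (SD, n = 8). Mlh3 followed at 4.53 ± 0.347 FPKM, then Lig1 at 2.79 ± 0.232 FPKM, Pms2 at 2.60 ± 0.214 FPKM, Fan1 at 1.71 ± 0.195 FPKM and Msh3 at 1.68 ± 0.0681 FPKM. Pms1 stood lower, at 0.486 ± 0.0678 FPKM, and Exo1 lowest, at 0.0789 ± 0.0297 FPKM. The ranges of the 8 WT mice overlapped between Msh6 and Mlh3, Lig1 and Pms2, and Fan1 and Msh3. Within single mice, Msh6 was above Mlh3 in 7 of 8, Lig1 above Pms2 in 8 of 8 and Fan1 above Msh3 in 5 of 8. The ranges of the other neighbours in that order did not overlap. FPKM rests on the authors' gene lengths, and for Mlh3 that length was 5446 bases, against 7554 bases of exons in GENCODE M21.

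**Figure D1:**
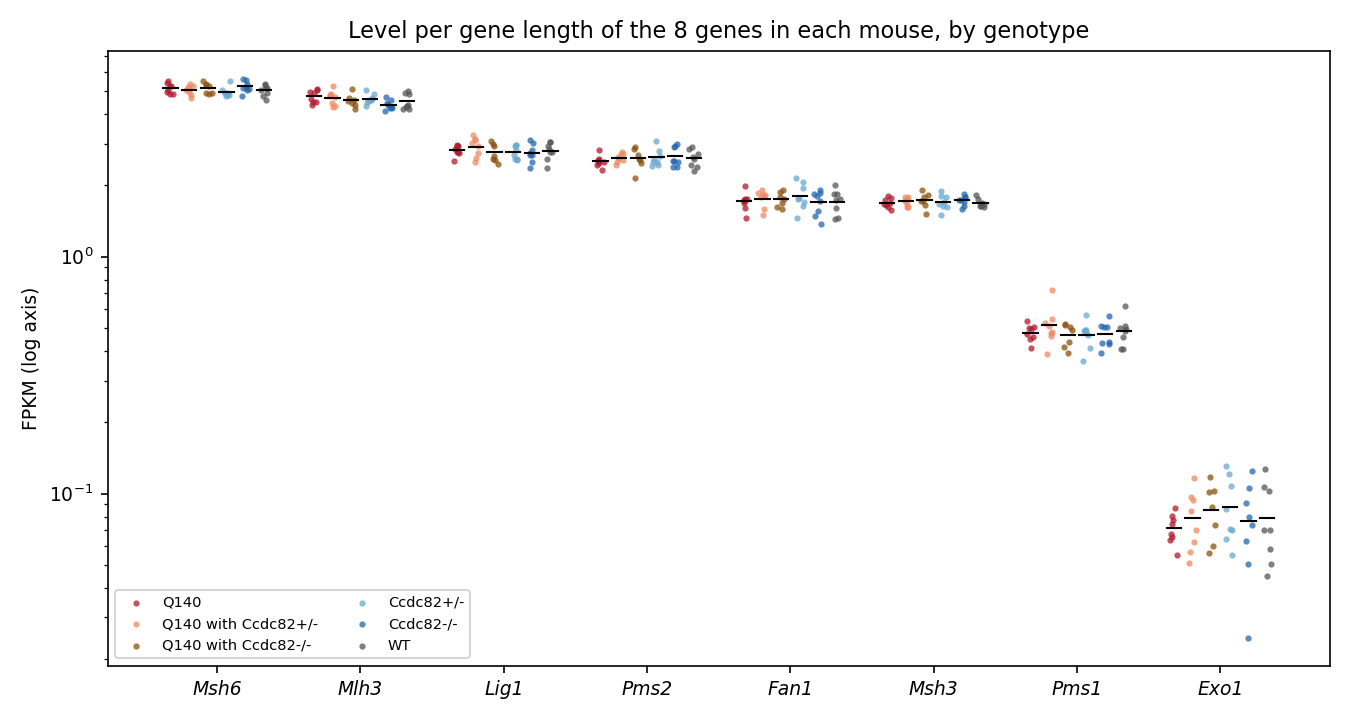
Level of the 8 genes in each of the 47 mice, in FPKM on a log axis, with mice as points, the 6 genotypes by colour and group means as bars. Genes are ordered by their WT mean, between 5.04 FPKM for Msh6 and 0.0789 FPKM for Exo1, and the 6 genotypes of each gene overlap.

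Mice differed little for most of these genes. Over all 47 mice, the coefficient of variation of the normalised level was 4.88% for Msh3, 5.27% for Msh6, 6.21% for Mlh3, 6.97% for Pms2, 7.20% for Lig1 and 9.40% for Fan1, against 12.8% for Pms1 and 30.3% for Exo1. Counting alone gives 3.22% for Msh3 and 18.2% for Exo1, whose counts per library lay between 10 and 61. Among genes of like level, the spread of Lig1 about its genotype and sex means was at the 12.9th percentile and that of Msh3 at the 18.9th. Msh6, Fan1, Pms1, Pms2 and Mlh3 stood at percentiles between 50.9 and 64.1, and Exo1 at the 79.6th. A small spread for the level was thus seen for Lig1 and Msh3 only. The highest mouse had 1.25 times the lowest for Msh3 and 5.22 times the lowest for Exo1.

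No difference with the Q140 allele passed the test in any of the 8 genes. In the edgeR quasi-likelihood fit over all genes, with genotype and sex as terms, a gene was called at a Benjamini-Hochberg adjusted p under 0.05. Q140 against WT called 6 of 19174 genes (0.0313%) and 0 of the 8. Q140 with Ccdc82+/- against Ccdc82+/- called 6 (0.0313%) and 0 of the 8, and Q140 with Ccdc82-/- against Ccdc82-/- called 4 (0.0209%) and 0 of the 8. Averaged over the 3 Ccdc82 genotypes, the Q140 difference called 168 genes (0.876%), 65 higher (0.339%) and 103 lower (0.537%), Htt among the lower, and again 0 of the 8. At an unadjusted p under 0.05 the count over the 8 was also 0 in each of these comparisons, and DESeq2 called 0.

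The Ccdc82 alleles gave the same count. Ccdc82+/- against WT, Ccdc82-/- against WT, Q140 with Ccdc82+/- against Q140, Q140 with Ccdc82-/- against Q140 and both pooled Ccdc82 differences each called 1 gene (0.00522%), Ccdc82, and 0 of the 8. The interactions, that is the Q140 difference in Ccdc82+/- or Ccdc82-/- mice minus that in mice with intact Ccdc82, called 0 genes (0%). Over all 12 genotype comparisons, 0 of the 8 had an unadjusted p under 0.05. A share this near the background says nothing particular about these genes. The pooled median log2 difference of the 8 was 0.0024 for Q140, 0.017 for Ccdc82+/- and 0.017 for Ccdc82-/-, beside 0.00085, -0.00051 and -0.00069 over all genes tested.

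The mismatch recognition genes were measured most tightly. Msh3 had 17.95, 19.05 and 20.1 CPM as the lowest, median and highest of Q140 mice, against 18.3, 18.8 and 20.3 CPM in WT mice. Its 6 group means lay between 18.98 and 19.5 CPM. Averaged over Ccdc82 genotypes, the Q140 difference of Msh3 was -0.0018 on the log2 scale (SE 0.022, edgeR adjusted p = 0.993), with a 95% interval of 0.969- to 1.03-fold. Msh6 had 20.8, 21.8 and 23.3 CPM in Q140 mice, against 19.4, 21.9 and 22.99 CPM in WT mice, with an interval of 0.974- to 1.04-fold for the pooled Q140 difference. The highest group mean of Msh6 was 22.3 CPM in Ccdc82-/- mice, and that group had 20.3, 22.1 and 24.2 CPM, which overlapped the WT range, 6 of the 8 WT mice lying inside it.

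Among the MutL genes, Mlh3 came closest to a difference. It had 23.9, 25.9 and 27.6 CPM in Q140 mice, 23.3, 25.7 and 28.6 CPM in Q140 with Ccdc82+/- mice and 22.9, 24.6 and 27.98 CPM in Q140 with Ccdc82-/- mice. It had 23.8, 25.2 and 27.2 CPM in Ccdc82+/- mice, 22.7, 23.5 and 25.8 CPM in Ccdc82-/- mice and 22.99, 23.7 and 27.2 CPM in WT mice. The groups overlapped throughout. The pooled Q140 difference of Mlh3 was 0.042 (SE 0.025, unadjusted p = 0.0915, edgeR adjusted p = 0.650), and the pooled Ccdc82-/- difference was -0.052 (SE 0.030, unadjusted p = 0.0951, edgeR adjusted p = 0.9999). Neither passed.

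Pms2 had 18.7, 20.5 and 22.5 CPM in Q140 mice, against 18.96, 21.3 and 23.4 CPM in WT mice, and the pooled Q140 difference was -0.033 (SE 0.025, edgeR adjusted p = 0.759). Pms1, at a level where each library held between 124 and 276 reads, had 3.14, 3.65 and 3.99 CPM in Q140 mice, against 3.08, 3.70 and 4.72 CPM in WT mice. Its pooled Q140 interval was wider, 0.944- to 1.09-fold.

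Fan1 had 8.75, 10.4 and 11.9 CPM in Q140 mice, against 8.83, 10.6 and 12.1 CPM in WT mice. Its largest genotype difference was 0.086 (SE 0.061, edgeR adjusted p = 0.993) in Ccdc82+/- mice, which had 8.97, 10.7 and 12.8 CPM. Lig1 had 10.9, 12.05 and 12.7 CPM in Q140 mice, against 10.3, 12.02 and 12.98 CPM in WT mice, and a pooled Q140 difference of 0.020 (SE 0.026, edgeR adjusted p = 0.899). Exo1 had 0.460, 0.601 and 0.728 CPM in Q140 mice, against 0.377, 0.598 and 1.06 CPM in WT mice. Its pooled Q140 interval ran between 0.807- and 1.13-fold, at 10 to 61 reads per library, and no smallest detectable change was computed.

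**Figure D2:**
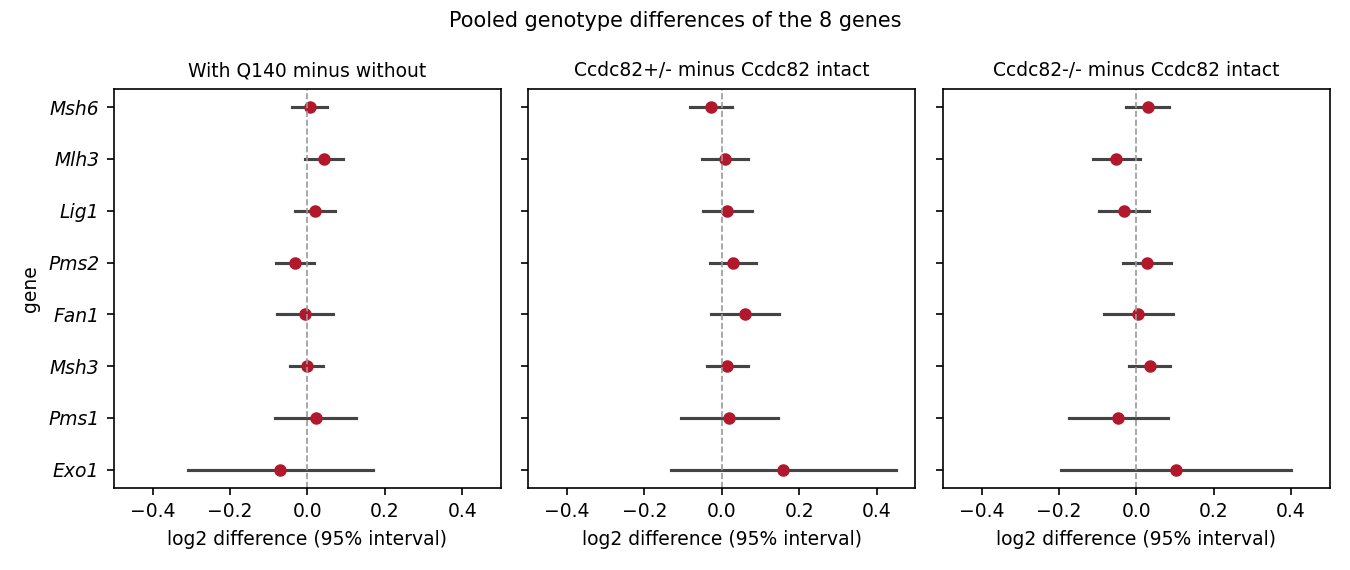
Pooled log2 differences of the 8 genes with 95% intervals from the edgeR fit, for mice with Q140 minus mice without, and for Ccdc82+/- or Ccdc82-/- minus intact Ccdc82. Every interval covers 0, and the widest belong to Exo1.

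Male mice had more Pms2, Fan1 and Lig1 RNA than female mice in this fit. The male against female comparison called 2018 of 19174 genes (10.5%), of which 1008 were higher (5.26%) and 1010 lower (5.27%) in males, and 3 of the 8, all higher in males. The 3 were a MutL subunit, a nuclease and a ligase. The median log2 difference of the 8 was 0.095, beside -0.0010 over all genes tested. 10.5% of 8 genes is less than 1 gene, and no test was made of the count itself.

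Pms2 had 19.9, 21.8 and 24.6 CPM as the lowest, median and highest of 24 males, against 17.6, 20.5 and 22.5 CPM in 23 females. 21 of the 24 males lay above the female median and 9 above the highest female. The log2 difference was 0.11 (SE 0.025, edgeR adjusted p = 0.00274), with a 95% interval of 0.062 to 0.16. In WT mice the males had 21.05, 21.9, 23.02 and 23.4 CPM, against 18.96, 19.8, 21.5 and 19.5 CPM in the females. In Q140 mice the males had 20.7, 19.95, 20.999 and 20.04 CPM, against 18.7, 22.5, 20.5 and 20.5 CPM in the females. In WT mice 1 female exceeded the lowest male, and in Q140 mice the 4 males lay within the range of the females. The difference of the pooled Q140 difference between the sexes was -0.076 (SE 0.048, edgeR adjusted p = 0.9998) and did not pass. It averages over the Ccdc82 genotypes, so WT and Q140 mice alone were not tested for it. Pms2 averaged higher in males by 0.084 in Q140 with Ccdc82+/- mice and by 0.15 in Q140 with Ccdc82-/- mice, on the log2 scale.

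Lig1 had 10.9, 12.5 and 13.9 CPM in males, against 10.2, 11.6 and 12.9 CPM in females. 19 of 24 males exceeded the female median, and the log2 difference was 0.12 (SE 0.026, edgeR adjusted p = 0.00338). Males averaged higher than females in 6 of 6 genotypes, by between 0.033 and 0.18 on the log2 scale. Fan1 had 8.46, 10.99 and 12.8 CPM in males, against 8.75, 10.3 and 11.9 CPM in females. 21 of 24 males exceeded the female median, although the single lowest mouse was a male, and the log2 difference was 0.12 (SE 0.036, edgeR adjusted p = 0.0274). Pms2 and Fan1 averaged higher in males in 5 of 6 genotypes. The exception for both was Q140, where 4 males and 4 females were nearly equal, at -0.0064 for Pms2 and -0.0080 for Fan1.

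Exo1 showed the largest difference of the 8 and did not pass. It had 0.423, 0.749 and 1.06 CPM in males, against 0.210, 0.594 and 1.096 CPM in females, a log2 difference of 0.33 (SE 0.12, unadjusted p = 0.00775, edgeR adjusted p = 0.0619), and averaged higher in males in 6 of 6 genotypes. The remaining 4 genes did not pass either, with log2 differences of 0.030 for Msh3 (95% interval -0.014 to 0.073), -0.0075 for Msh6 (-0.053 to 0.038), -0.024 for Mlh3 (-0.074 to 0.025) and 0.079 for Pms1 (-0.026 to 0.18). The difference of the pooled Q140 or pooled Ccdc82-/- difference between the sexes passed in none of the 8, where 0 of 19174 genes (0%) were called and 0 of the 8 had an unadjusted p under 0.05 in edgeR, and DESeq2 also called 0 of the 8.

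**Figure D3:**
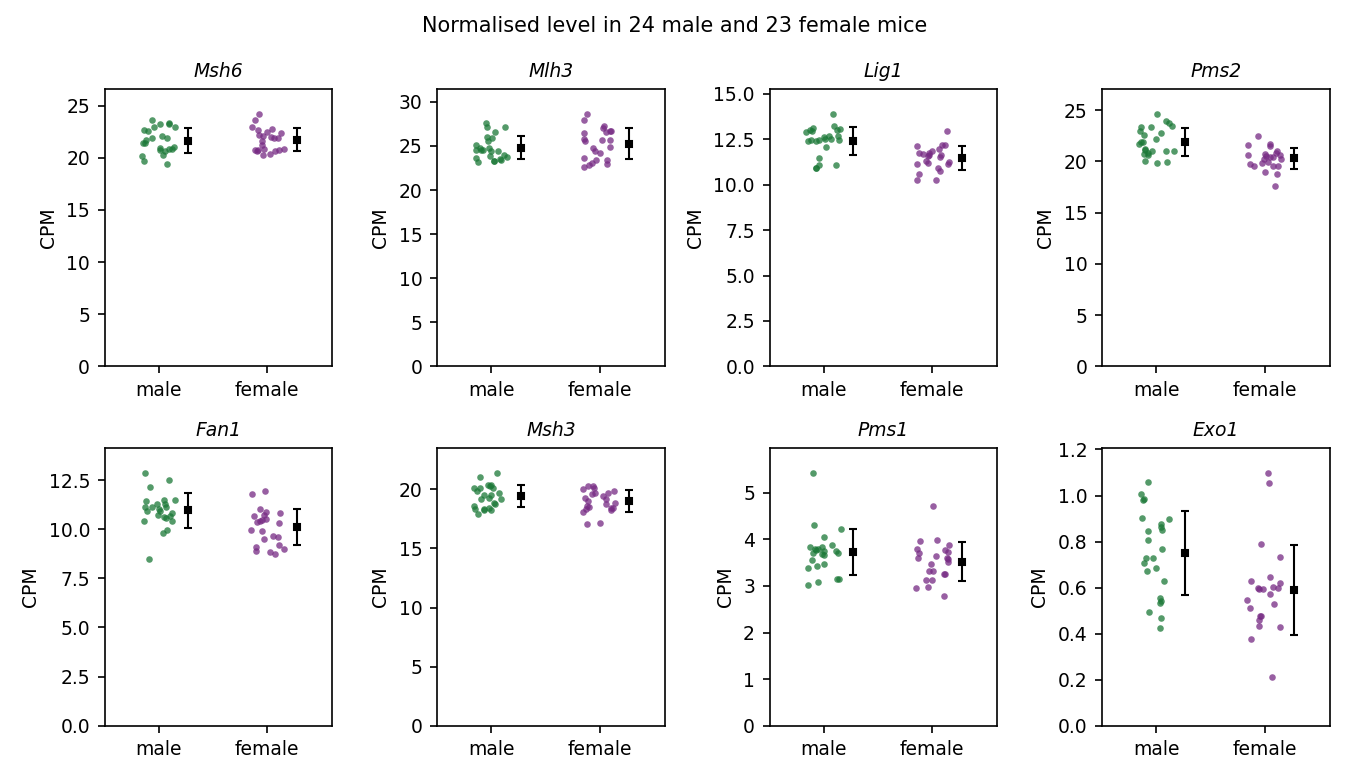
Normalised level (CPM) of the 8 genes in each of 24 male and 23 female mice, with mean and SD beside the points. Pms2, Lig1 and Fan1 sit higher in males, with medians of 21.8, 12.5 and 10.99 CPM, against 20.5, 11.6 and 10.3 CPM in females, and the points of the sexes overlap for all 8 genes.

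The calls between the sexes depended on which other terms were in the fit. With 2 surrogate variables added to the fit, 0 of the 8 were called and the estimates of Pms2, Fan1 and Lig1 turned to -0.10, -0.11 and -0.069 (edgeR adjusted p of 0.399, 0.595 and 0.671). Those variables were estimated without protecting sex, which accounted for 46.0% and 44.6% of their variance. This fit therefore cannot tell sex from the variables, and nothing is read from its lost calls or turned signs. With surrogate variables estimated so that sex was protected as well, a choice made after that result was seen, sex accounted for 16.03% and 0.00672% of their variance. Then 0 of the 8 were called again, at 0.065, 0.054 and 0.071 (edgeR adjusted p of 0.0564, 0.282 and 0.0593). In all other alternative fits Pms2 and Lig1 passed.

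The deposited library names carry a number whose meaning the labels do not give. There were 19 such numbers, each with 1 sex only, 9 of males and 10 of females, so a number and a sex cannot be told apart within it, and 14 numbers held more than 1 genotype. Mice sharing a number were alike in Fan1, with an intraclass correlation of 0.603 over 43 libraries of 15 numbers after genotype and sex means were removed. That of Mlh3 was 0.391, that of Pms2 0.272 and that of Lig1 0.232, and that of Msh6 was -0.016. Taking the mean of each number as 1 value, Pms2 lay between 20.5 and 23.6 CPM over the 9 male numbers, against 18.3 and 21.6 CPM over the 10 female numbers. The log2 difference over numbers was 0.12 for Pms2 (exact permutation p = 0.000617, two-sided), 0.11 for Lig1 (exact p = 0.00736), 0.38 for Exo1 (exact p = 0.0132) and 0.11 for Fan1 (exact p = 0.0397). These p-values are not adjusted over genes and the test was chosen after the data were seen.

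With the number as a random block in limma, Fan1 no longer passed (0.11, SE 0.039, adjusted p = 0.0811). Fan1 was also lost in 5 of 8 fits that each left out the mice of 1 sex and replicate number, namely female 3, female 4, male 1, male 2 and male 3, where the difference lay between 0.093 and 0.12 and the edgeR adjusted p between 0.0684 and 0.131. The 5 male libraries numbered 19 had 10.9 to 12.8 CPM of Fan1 and 0.769 to 1.01 CPM of Exo1, against medians of 10.99 and 0.749 CPM over all males. Without them Fan1 fell to 0.091 (edgeR adjusted p = 0.161) and Exo1 to 0.25 (edgeR adjusted p = 0.268), whereas Pms2 stayed at 0.099 (edgeR adjusted p = 0.0215) and Lig1 at 0.12 (edgeR adjusted p = 0.0135).

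**Figure D4:**
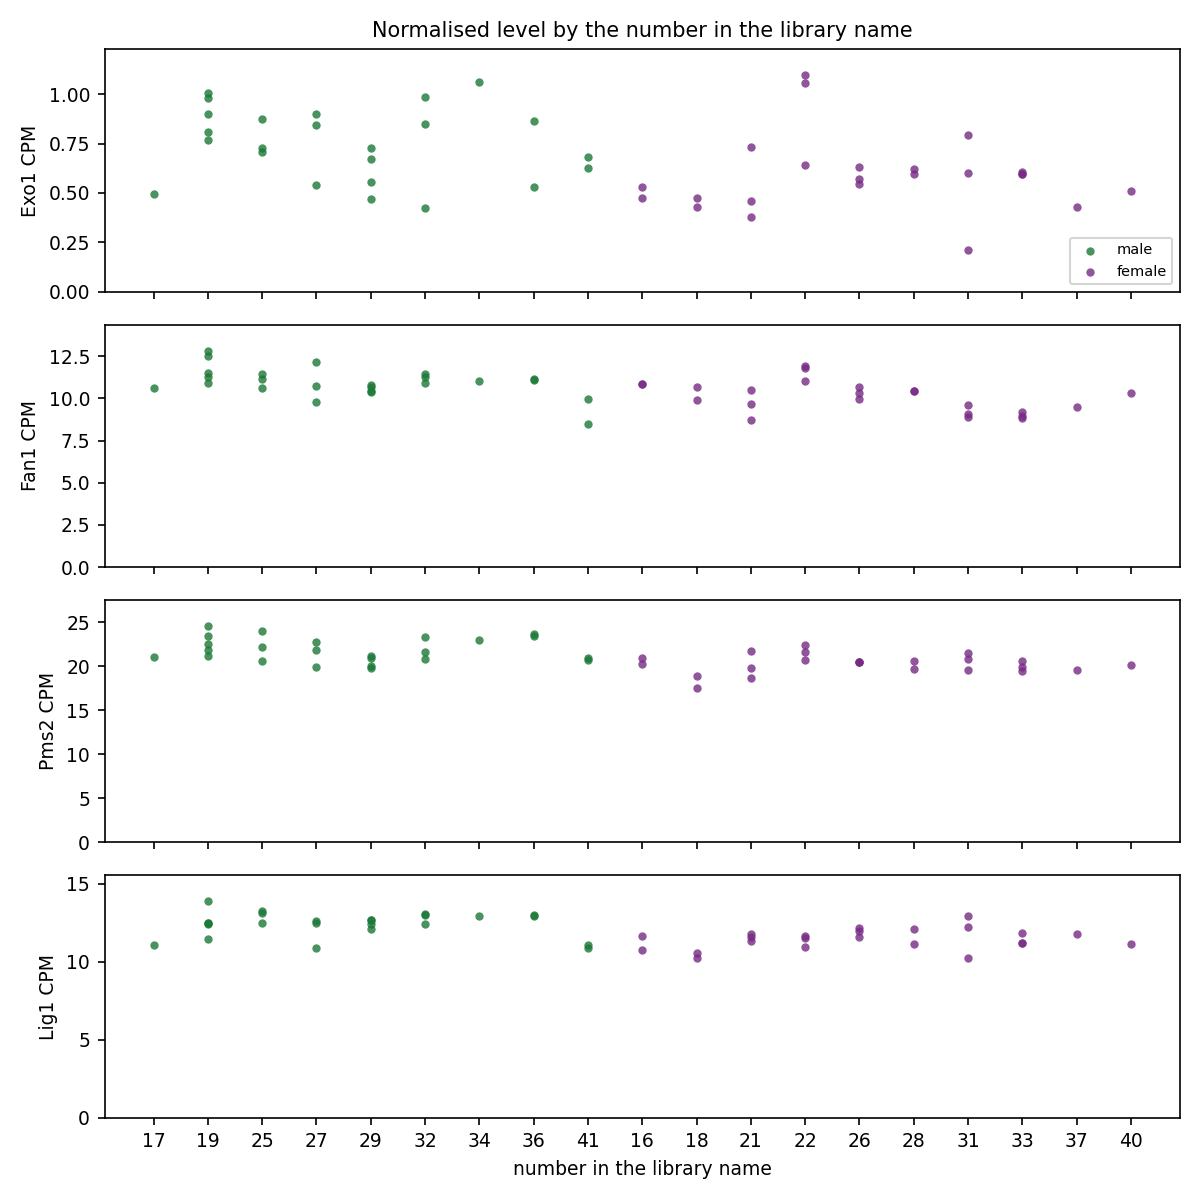
Normalised level (CPM) of Exo1, Fan1, Pms2 and Lig1 in each library, by the number in its name, with male numbers left of female numbers. The 3 female libraries numbered 22 reach 1.096 CPM of Exo1 and 11.9 CPM of Fan1, and the 2 male libraries numbered 41 have 8.46 and 9.96 CPM of Fan1.

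Genes that share annotation with these 8 were read beside them, because no source used here states the strand setting of the counting. Pms2 shares 85 exonic bases on the same strand with Rsph10b, a radial spoke gene, and Rsph10b was also higher in males, by 0.16 (SE 0.037, edgeR adjusted p = 0.00397). Pms2 also shares 394 exonic bases on the same strand with Gm42421, a gene with a median count of 12, and these overlaps may include the same bases. The part of Rsph10b in the Pms2 difference was not tested, and the correlation of the pair over 47 mice was 0.053. Lig1 shares 247 exonic bases on the opposite strand with Zswim9, which differed by 0.010 (SE 0.020, edgeR adjusted p = 0.795) between the sexes. Msh6 (ENSMUSG00000005370, chromosome 17, 87975062 to 87990892, plus strand) shares 34 exonic bases on the opposite strand with Fbxo11. Fan1 (ENSMUSG00000033458, chromosome 7, 64346758 to 64374095, minus strand) has the noncoding gene Gm20457 within 793 bases on the same strand, at 0.15 (SE 0.057, edgeR adjusted p = 0.0872) between the sexes. Pms2 (ENSMUSG00000079109, chromosome 5, 143909964 to 143933968, plus strand) and Aimp2 start 116 bases apart and run away from each other, as do Pms1 (ENSMUSG00000026098, chromosome 1, 53189187 to 53297018, minus strand) and Ormdl1 at 76 bases. Aimp2 and Ormdl1 differed by 0.0045 and 0.042 between the sexes and neither passed (edgeR adjusted p of 0.933 and 0.529). Msh3 (ENSMUSG00000014850) lies on chromosome 13, 92211872 to 92355003, minus strand, Lig1 (ENSMUSG00000056394) on chromosome 7, 13277283 to 13311433, plus strand, Mlh3 (ENSMUSG00000021245) on chromosome 12, 85234520 to 85270599, minus strand, and Exo1 (ENSMUSG00000039748) on chromosome 1, 175880581 to 175913489, plus strand, all on GRCm38.

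Of 56 genes on 6 lists from the same repair pathways and their surroundings, 54 were tested and 8 differed between the sexes, 7 higher and 1 lower in males, with a median log2 difference of 0.035 beside -0.0010 over all genes tested. The background was 10.5% of all genes called between the sexes, so nothing particular to these lists is read from their counts. Those with a value given here are 6 of the 8. In resynthesis 2 of 14 were higher, Rfc3, a subunit of the clamp loader, by 0.19 (SE 0.048, edgeR adjusted p = 0.00953) and Hmgb1, a chromatin protein, by 0.061 (SE 0.016, edgeR adjusted p = 0.0127). Among Fanconi genes 1 of 9 was higher, the translocase Fancm, by 0.15 (SE 0.039, edgeR adjusted p = 0.00916). The flap nuclease Fen1 was the 1 of 7 excision repair genes, at 0.10 (SE 0.027, edgeR adjusted p = 0.00919). Of 14 cell cycle genes tested, the replicative helicase subunit Mcm4 was higher, by 0.099 (SE 0.027, edgeR adjusted p = 0.0129), and the mitotic cyclin Ccnb1 lower, at -0.45 (SE 0.15, edgeR adjusted p = 0.0459). With Q140, averaged over Ccdc82 genotypes, 1 of the 54 was called, Htt itself, at -0.074 (SE 0.015, edgeR adjusted p = 0.00320), and with Ccdc82-/- also 1, Ccdc82.

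Markers of cell types were read in the same fit. Between the sexes, 4 of 37 tested markers were called, a share near the 10.5% of all genes tested. Of 3 endothelial markers, Cldn5, a tight junction gene, and Flt1, a VEGF receptor, were lower in males, at -0.21 (SE 0.042, edgeR adjusted p = 0.00110) and -0.082 (SE 0.027, edgeR adjusted p = 0.0468). The interneuron enzyme Gad1 and the striatal neuron gene Ppp1r1b were higher, at 0.062 (SE 0.015, edgeR adjusted p = 0.00563) and 0.10 (SE 0.032, edgeR adjusted p = 0.0339). The other 3 striatal markers were not called, at 0.033 for Drd1, -0.076 for Drd2 and -0.11 for Adora2a. The summed level of 3 endothelial markers lay between 107 and 130 CPM, median 114, in males, against 107 to 139 CPM, median 121, in females. Their part in the sex difference of Pms2, Fan1 and Lig1 was not tested. With Q140, averaged over Ccdc82 genotypes, 1 of 37 was called, beside 0.876% of all genes tested, and 0 of the 8. It was the neuronal nuclear protein gene Rbfox3, at -0.066 (SE 0.014, edgeR adjusted p = 0.00701). At an unadjusted edgeR p under 0.05 stood 12 of the 37, so the single call does not show that the other markers were unchanged. Cell composition with Q140 was not tested.

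Correlations among the 8 genes over mice are given as a description. After removal of genotype and sex means, 17 of the 28 pairs correlated positively over 47 mice, with a median Pearson r of 0.18, and 9 passed at an adjusted permutation p under 0.05 over the 28 pairs (100000 permutations, two-sided). Of these 8 were positive and linked Pms2, Lig1, Exo1, Msh3, Pms1 and Fan1. Pms1 and Lig1 had the highest, r = 0.53 and rho = 0.48 (adjusted permutation p of 0.00308 and 0.00588). Without the 2 mice farthest from the median of Pms1, r was 0.48. Pms2 correlated with Fan1 at r = 0.49 and rho = 0.49 (adjusted permutation p of 0.00413 and 0.00588), with Exo1 at r = 0.48 and rho = 0.57, with Msh3 at r = 0.47 and rho = 0.41 and with Lig1 at r = 0.42 and rho = 0.44. Msh3 correlated with Lig1 at r = 0.49 and rho = 0.51, and Exo1 with Lig1 at r = 0.42 and rho = 0.43 and with Fan1 at r = 0.37 and rho = 0.40. The remaining pair was negative, Msh6 and Pms2, at r = -0.37 and rho = -0.42 (adjusted permutation p of 0.0346 and 0.0120). That pair did not pass in any of the 3 other settings, at -0.30 on log2(FPKM + 0.1), -0.29 with the plate column removed and -0.28 within library-name numbers (adjusted permutation p of 0.0804, 0.105 and 0.410). Mlh3 took part in none of the 9. Of the 19173 other genes, between 93, for Msh3, and 877, for Msh6, had r over 0.5 with one of the 8, with 644 for Lig1 and 595 for Pms2. The share of other gene pairs that would pass was not computed.

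Within library-name numbers, where 15 numbers held more than 1 library, 0 of 28 pairs passed under permutation within number. Of the 9 pairs above, Exo1 and Lig1 had r = 0.55 there, Pms1 and Lig1 0.42, Pms2 and Fan1 0.42, Msh3 and Lig1 0.35, Msh3 and Pms2 0.35, Pms2 and Lig1 0.30, Pms2 and Exo1 0.25, Fan1 and Exo1 0.10, and Msh6 and Pms2 -0.28 (adjusted permutation p between 0.214 and 0.782). With the plate column of the well address removed, 7 pairs passed, 6 of them among the 9. The points share library preparation and depth.

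**Figure D5:**
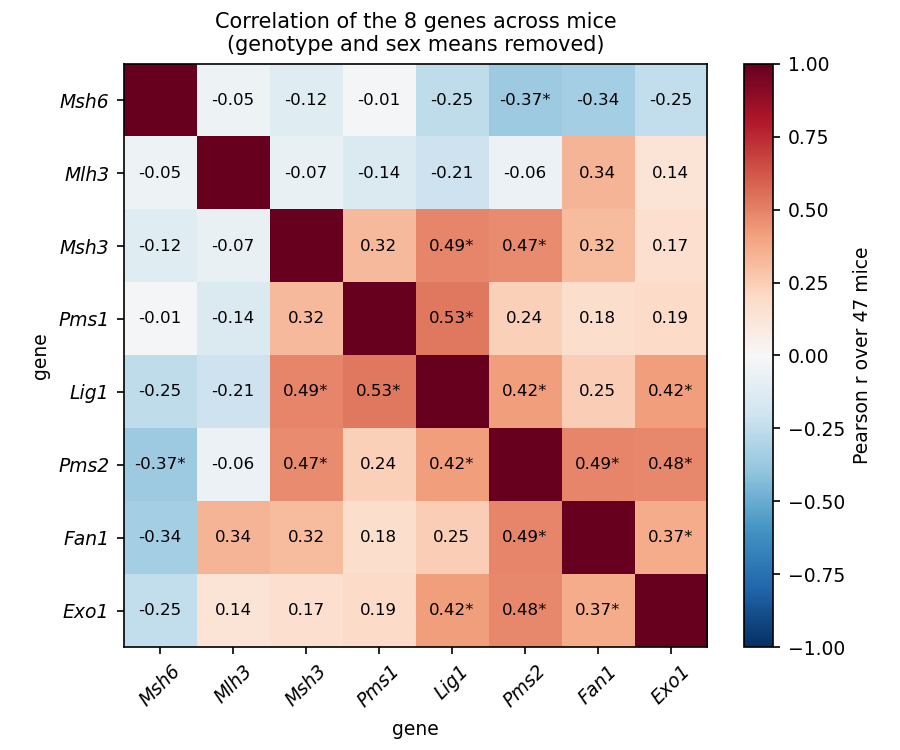
Pearson r between each pair of the 8 genes over 47 mice after genotype and sex means were removed, with an asterisk at an adjusted permutation p under 0.05. All pairs among Msh3, Pms1, Lig1, Pms2, Fan1 and Exo1 have positive values, between 0.17 for Msh3 and Exo1 and 0.53 for Pms1 and Lig1. Not all of these pairs carry an asterisk, and 0 of the 28 pairs passed within library-name numbers. Msh6 and Pms2 stand at -0.37.

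Over the 19174 genes, the 2 whose pattern over mice was most like each gene, by the same residual correlation, were Flot1 (r = 0.68) and Gm15453 (r = 0.65) for Msh3, and Hspd1-ps3 (r = 0.79) and Kbtbd2 (r = 0.78) for Msh6. For Mlh3 they were Gfm2 (r = 0.70) and Csnk2a2 (r = 0.67), for Pms1 Stard4 (r = 0.70) and Eml2 (r = 0.65), and for Pms2 Cirbp (r = 0.73) and Grb10 (r = 0.73). For Fan1 they were Zfp26 (r = 0.75) and Cd2ap (r = 0.74), for Lig1 Cep131 (r = 0.78) and Parpbp (r = 0.77), and for Exo1 1700088E04Rik (r = 0.77) and Chst15 (r = 0.72). Each was the highest of many and is given with no test. None of the 8 was among the 2 most alike of another. The neighbour Fbxo11 had r = 0.45 with Msh6 and ranked 1311 of 19173 genes.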

How the data were processed

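RNA from the cortex of 47 mice was sequenced after a TruSeq stranded preparation, per the labels' protocols. HTSeq 0.12.3, STAR 2.7.5c and SAMtools 1.10 appear in the submitters' processing notes, which list mm10 beside GRCm38 as build. No source used here states the annotation release or the strand setting of the counting. The deposited count table holds the authors' raw read counts per gene, and the deposited FPKM table the authors' length-scaled values, in which a gene has 1 length across libraries. Library totals, between 43554594 and 61370843 counts, bear on the counting error, and the spread between mice also enters the precision. The labels mention no molecular identifiers, so counting errors cover counting only.

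Counts were filtered with filterByExpr (minimum count 10, minimum total 15), normalised by TMM and fitted in edgeR 4.0.16 (R 4.3.3) by the robust quasi-likelihood method with 6 genotype means and sex, using every library together. Calls were made over 19174 genes at a Benjamini-Hochberg adjusted p under 0.05. The fit was tested on simulated counts drawn independently for each library. That test therefore does not cover likeness between libraries that share a library-name number. CPM are TMM-normalised for single genes and plain for sums of markers. The alternatives used DESeq2 1.42.0, limma 3.58.1 and sva 3.50.0. Named were the 8 genes, Ccdc82, Htt, listed genes that were called, annotated neighbours within 1000 bases with reads, and the 2 genes most alike to each. Some items that this rule names are not reported here. Genes and lists were chosen with earlier results of these data known. P-values measure the spread between these libraries, one per titled mouse. Coordinates are GENCODE M21 on GRCm38, and promoter windows are RefSeq on GRCm38.p6.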

Additional observations from a re-analysis of the deposited data

Results flagged for a closer look

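In 48 groups, each 1 gene in 1 genotype, the highest or lowest mouse was compared with its group by Dixon's criterion, which flags about 1 group in 20 by chance. It set 3 mice apart. Msh6 stood at 23.6 CPM in 1 female Ccdc82+/- mouse, where the other 7 had 20.1 to 21.4 CPM. Pms1 stood at 5.414 CPM in 1 male Q140 with Ccdc82+/- mouse, where the others had 2.95 to 4.05 CPM. Pms1 also stood at 4.721 CPM in 1 female WT mouse, where the others had 3.08 to 3.83 CPM.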

How the results depend on the processing

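Each result was recomputed under up to 25 alternative settings. Over 1976 alternative values of the 8 genes in the 12 genotype comparisons, 0 were called and the lowest adjusted p was 0.316. Of these values, 7 changed sign by more than the SE of the main estimate, and smaller changes of sign were not counted. With 2 surrogate variables these were Pms2 in Q140 with Ccdc82+/- against Q140 (-0.0011) and in the pooled Ccdc82+/- difference (-0.0032). With sex protected too they were Fan1 in Q140 with Ccdc82+/- against Q140 (-0.033) and the pooled Ccdc82+/- differences of Msh6 (0.0049), Mlh3 (-0.022) and Fan1 (-0.00095). Without female replicate 1 it was Exo1 in the pooled Q140 difference (0.059). Between the sexes, 3 of the 8 were called, and 0 with 2 surrogate variables in either form. The first form did not protect sex and cannot tell it from the variables. There Msh3, Mlh3, Pms1, Pms2, Fan1 and Lig1 stood at -0.062, 0.0046, -0.13, -0.10, -0.11 and -0.069. In the second form Msh6 stood at 0.031. Leaving out the mice of 1 sex and replicate number moved Mlh3 to between -0.042 and 0.0055, Msh6 to between -0.022 and 0.019 and, for the pooled Q140 difference, Exo1 to between -0.13 and 0.059. Exo1 passed with DESeq2 (0.34, adjusted p = 0.0432), with the plate column in the edgeR fit (0.42, adjusted p = 0.0114), without female replicate 1 (0.40, adjusted p = 0.0298) and without male replicate 4 (0.38, adjusted p = 0.0440). Of 28 gene pairs, 9 correlated past the threshold, against 7 with the plate column removed, 12 on log2(FPKM + 0.1) and 0 within library-name numbers. Genes called numbered 6 (5 to 47 under alternatives) for Q140 against WT, 6 (2 to 27) for Q140 with Ccdc82+/- against Ccdc82+/-, 4 (2 to 9) for Q140 with Ccdc82-/- against Ccdc82-/-, 168 (90 to 383) for the pooled Q140 difference and 2018 (851 to 2769) for male against female. With the replicate number as a block, 0 of the 8 were called in each genotype comparison and the pooled Q140 difference called 154 genes. Mice of the same sex and replicate number in different genotypes correlated at a median of 0.029 over 115 pairs (-0.34 to 0.49). Of 47 libraries, 14 correlated best with their own replicate number. For the library-name number, the median was 0.083 over 38 pairs and the consensus correlation in limma 0.142. The second surrogate variable form, the fit without libraries numbered 19 and the exact test over library-name numbers were chosen after seeing the data. The causes were not tested.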

Other observations

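The 15 cell cycle genes, which include replication genes that act beside Lig1, summed to between 39.5 and 46.0 CPM with a median of 43.0 CPM in males, against 39.2 to 44.9 CPM with a median of 40.8 CPM in females. The 4 haemoglobin genes, read as markers of blood, summed to between 0.128 and 29.9 CPM in males and between 0.156 and 33.7 CPM in females.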
